A study of Mus musculus with 2 samples.

Results

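The collagen genes are the protein-coding genes whose symbol has the form Col, a number, the letter a and a number. The rule found 44 of them among 43346 Ensembl gene entries, 21461 of which were protein-coding nuclear genes, and they lay on 15 chromosomes. They were sorted as 11 fibrillar, 8 basement membrane and 25 other collagens. The tissue was hindbrain from B6NCrl mouse embryos at 11.5 days, in 1 group of 2 biological replicates. Pool 1 held the hindbrains of 109 embryos and pool 2 those of 88, with males and females combined, so no embryo was measured singly. Total RNA longer than 200 nt was profiled from 10 ng per library, with ERCC spike-ins, which are synthetic RNAs of known sequence. The design holds no treated, mutant or older group, so the data give levels and the spread between the pools.

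A collagen is built of 3 chains wound into a triple helix, in which glycine recurs at regular steps along each chain. Fibrillar collagens are secreted as procollagens, trimmed at both ends and packed into fibrils. Type IV collagen forms the mesh of basement membranes, and the remaining types sit on fibrils, form filaments or short networks, or span the cell membrane. In the embryonic brain, collagens are best known from the meninges, the blood vessels and the basement membrane around the neural tube, while the neuroepithelium itself is poor in fibrils. Because whole tissue was measured, fewer cells of a type and less RNA per cell cannot be told apart in any level given here.

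Depth was 45340440 expected counts in pool 1 and 41261544 in pool 2, of which 41982915 in pool 1 and 36833678 in pool 2 lay on Ensembl genes. An expected count is an estimated number of reads, which need not be whole. Levels are in TPM, which is scaled by transcript length and by the sum over all transcripts, so that levels can be compared between genes. The synthetic RNAs made up 16.2% of the TPM of pool 1 and 22.2% of that of pool 2, and the median gene was 0.11 higher in pool 1 on the log2(TPM + 1) scale. Ratios between the pools are therefore given relative to the median gene, on that log2 scale, and a positive ratio means higher in pool 1. Nothing but the replicate number and the embryo count sets the pools apart in the labels, so these ratios have no replicate check and no test.

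Collagen RNA was dominated by fibrillar chains. Collagen genes summed to 867 TPM in pool 1 and 812 TPM in pool 2, which was 0.118% of the TPM of protein-coding genes in pool 1 and 0.122% in pool 2. From expected counts, which are not scaled by length, the share was 0.295% in pool 1 and 0.298% in pool 2. Fibrillar collagens held 69.2% of collagen TPM in pool 1 and 68.3% in pool 2, a mean of 68.7% ± 0.678 (SD, n = 2). Basement membrane collagens held 14.5% in pool 1 and 13.4% in pool 2 (13.97% ± 0.751), and the other collagens 16.3% in pool 1 and 18.3% in pool 2 (17.3% ± 1.43). The 4 most abundant genes, all fibrillar, made up 63.3% of the sum in pool 1 and 61.5% in pool 2. The 10 most abundant made up 82.8% in pool 1 and 81.0% in pool 2.

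Of the 44 genes, 29 (65.9%) had 1 TPM or more in each pool, against 59.4% of all protein-coding nuclear genes, so the share of collagens detected was near the background. These were 8 of 11 fibrillar, 6 of 8 basement membrane and 15 of 25 other collagens. The same 29 genes had a mean TPM of at least 1, and the 15 others had a mean below 1. Most of the low genes also had few reads: 29 collagens had at least 100 expected counts in both pools and 13 had fewer than 100 in both. The 29 genes by counts were not wholly the 29 by TPM. Col22a1, with a mean of 0.88 TPM, had 231 counts in pool 1 and 139 in pool 2. Col13a1, with a mean of 1.2 TPM, had 78 in pool 1 and 62 in pool 2.

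**Figure D1:**
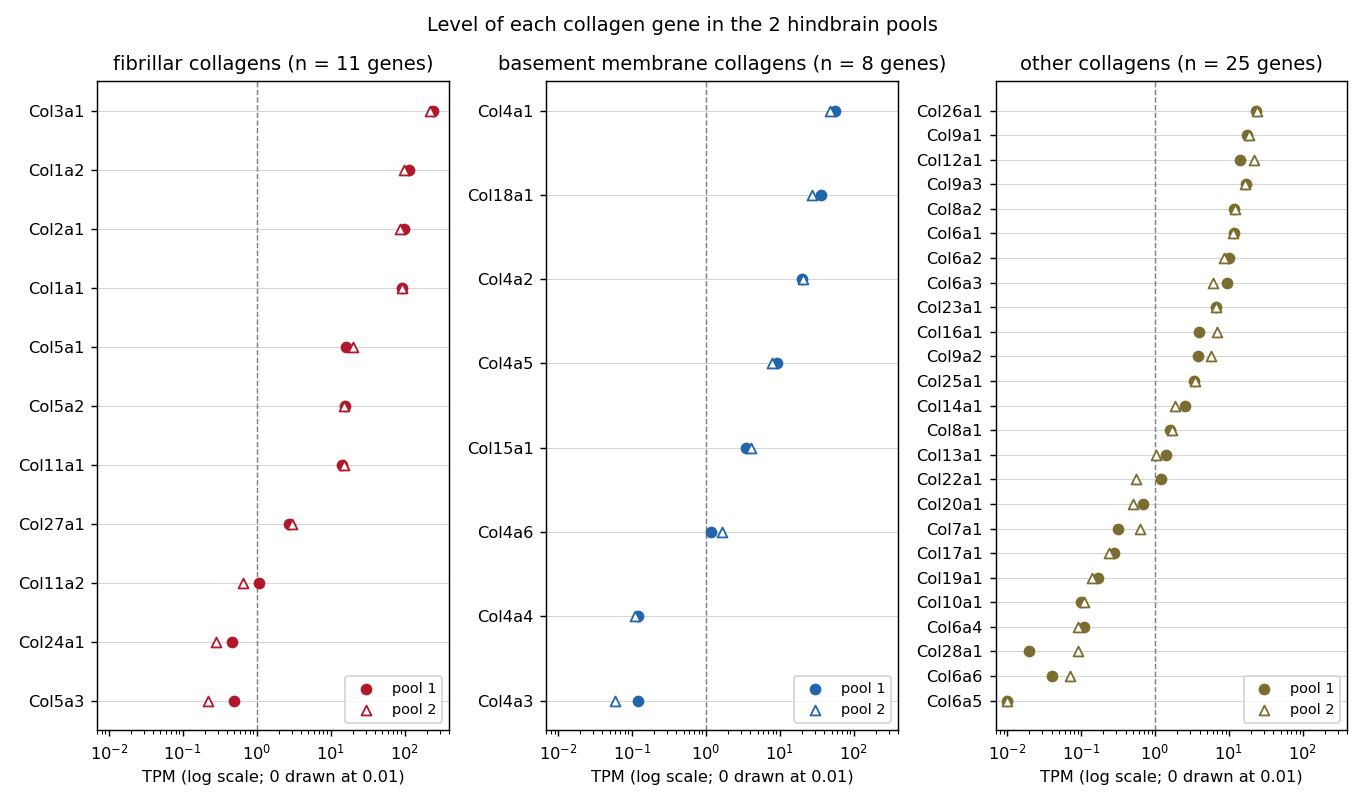
TPM of each of the 44 collagen genes on a log axis, ordered by mean within the fibrillar, basement membrane and other classes, with a filled circle for pool 1, a triangle for pool 2, a dashed line at 1 TPM and 0 drawn at 0.01. The points of the pools lie close together down to about 1 TPM, Col3a1 stands highest with 244 TPM in pool 1 and 221 TPM in pool 2, and 15 genes have a mean below 1 TPM.

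Among the fibrillar collagens, Col3a1 (ENSMUSG00000026043, chr1:45311538-45349706, plus strand, GRCm38) was the most abundant collagen gene. It encodes the only chain of type III collagen, a fibril of soft tissues and vessel walls, and had 244 TPM in pool 1 and 221 TPM in pool 2 (232 ± 15.8, SD, n = 2). Type I collagen, the main fibril of connective tissue and bone, is made from the chains of Col1a1 and Col1a2. Col1a2 (chr6:4504814-4541544) had 114 TPM in pool 1 and 98.2 TPM in pool 2, and Col1a1 (chr11:94936224-94953042) had 92.2 TPM in pool 1 and 92.9 TPM in pool 2. Col2a1 (chr15:97975602-98004695, minus strand), the chain of type II collagen, had 99.3 TPM in pool 1 and 87.2 TPM in pool 2. Col3a1 stood above each of these 3 genes in both pools, and Col1a2 (106 ± 11.1 TPM) stood above the other two in both. Col2a1 stood above Col1a1 in pool 1 and below it in pool 2, and their means of 93.3 ± 8.55 and 92.6 ± 0.474 TPM differed by less than the spread of the pools (SD, n = 2).

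Type II collagen is the fibril of cartilage and is also made early in the neural tube and notochord. Cartilage is a tissue that these hindbrains could hold, and of the 10 cartilage markers examined 5 reached 1 TPM in both pools. Sox9, a transcription factor of cartilage and of neural progenitors, had 103 TPM in pool 1 and 87.3 TPM in pool 2. The other 4 were Sox5, Cnmd, Hapln1 and Sox6, between 7.5 and 18.4 TPM in pool 1 and between 6.81 and 20.9 TPM in pool 2, of which Hapln1 encodes a link protein of the cartilage matrix and Cnmd chondromodulin. Acan, which encodes aggrecan, the defining proteoglycan of cartilage, had 0.30 TPM in pool 1 and 0.27 TPM in pool 2. Matn1, a cartilage matrix protein, had 0.64 TPM in pool 1 and was listed at 0 in pool 2. Comp, Ihh and Matn3 were also under 1 TPM in at least 1 pool, so the cartilage list was divided. So was the list for notochord and floor plate, with 3 of 6 markers at 1 TPM or more in both pools. Of these Nog had 4.9 TPM in pool 1 and 3.39 TPM in pool 2, Foxa2 had 2.56 TPM in pool 1 and 3.09 TPM in pool 2, and Shh had 1.27 TPM in pool 1 and 1.93 TPM in pool 2. The notochord gene T had 0.63 TPM in pool 1 and 0.15 TPM in pool 2, and Noto was listed at 0 in both. Which cells supplied the Col2a1 RNA was not tested.

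Col2a1 is made in 2 forms that differ by exon 2. This exon encodes a von Willebrand factor C-type domain of the amino-terminal propeptide, and the form with it, IIA, is known from tissue before and outside cartilage, while form IIB, without it, is the form of mature chondrocytes. Exon 2 is 204 nt long (68 codons) and lies at chr15:98000403-98000606 on the minus strand of GRCm38. Its sequence is shown because it is the stretch that tells the forms apart, with exon 2 in capitals between 15 bases of exon 1 and 15 bases of exon 3 in lower case, read from the GENCODE vM21 sequence of the spliced transcript.
Col2a1 exon 2: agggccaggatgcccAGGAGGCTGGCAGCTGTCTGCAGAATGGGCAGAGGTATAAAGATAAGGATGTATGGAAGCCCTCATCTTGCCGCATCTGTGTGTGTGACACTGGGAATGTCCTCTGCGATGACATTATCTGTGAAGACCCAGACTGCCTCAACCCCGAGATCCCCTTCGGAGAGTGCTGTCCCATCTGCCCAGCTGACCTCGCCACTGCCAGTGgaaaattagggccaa
The full-length transcript that contains it, Col2a1-201, had 59.0 TPM in pool 1 and 42.4 TPM in pool 2. The full-length transcript that lacks it, Col2a1-202, which also differs by some bases of exon 1, had 28.2 TPM in pool 1 and 33.2 TPM in pool 2. The form with exon 2 was the more abundant in both pools, at 67.7% of the pair in pool 1 and 56.1% in pool 2 (61.9% ± 8.17, SD, n = 2). The deposited intervals did not overlap between the forms within a pool: they ran over 52.4 to 61.5 TPM with exon 2 and 24.1 to 33.2 TPM without it in pool 1, and over 37.7 to 46.1 TPM with and 27.5 to 36.3 TPM without it in pool 2. No source used here states the level of these intervals.

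The remaining fibrillar collagens were lower. Type V collagen, which starts and limits the growth of type I fibrils, was represented by Col5a1 with 16.2 TPM in pool 1 and 20.0 TPM in pool 2 and by Col5a2 with 15.7 TPM in pool 1 and 14.97 TPM in pool 2. A further type V chain, Col5a3, had only 0.49 TPM in pool 1 and 0.22 TPM in pool 2. Col11a1, the type XI chain that joins type II fibrils, had 14.3 TPM in pool 1 and 15.4 TPM in pool 2. By gene TPM, Col5a2 and Col11a1 lay within the spread of the pools, at 15.3 ± 0.516 and 14.8 ± 0.728 TPM (SD, n = 2), and Col5a1 stood above both in each pool, at 18.1 ± 2.69 TPM. Col11a1-204, annotated as a target of nonsense-mediated decay, held 37.2% of Col11a1 TPM in pool 1 and 34.3% in pool 2. The full-length Col11a1-201 had 8.55 TPM in pool 1 and 8.62 TPM in pool 2. Col5a2-201 held 99.1% of Col5a2 in pool 1 and 97.8% in pool 2. The partner of Col11a1, Col11a2, had 1.07 TPM in pool 1 and 0.65 TPM in pool 2. Of the late-named fibrillar chains, Col27a1, known from developing cartilage, had 2.76 TPM in pool 1 and 3.04 TPM in pool 2, and Col24a1, known from bone, had 0.47 TPM in pool 1 and 0.28 TPM in pool 2.

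In the basement membrane class, the type IV chains that occur in nearly all basement membranes were the most abundant of their type. Col4a1 had 56.1 TPM in pool 1 and 47.2 TPM in pool 2 (51.6 ± 6.29, SD, n = 2), and Col4a2, whose chain assembles with that of Col4a1, had 19.8 TPM in pool 1 and 20.6 TPM in pool 2 (20.2 ± 0.587). Col4a5, a chain of specialised basement membranes, followed with 9.08 TPM in pool 1 and 7.89 TPM in pool 2. Its partner Col4a6 had 1.18 TPM in pool 1 and 1.66 TPM in pool 2. The Col4a3 and Col4a4 chains, known from the kidney glomerulus, were barely read, with 0.12 TPM in pool 1 and 0.06 TPM in pool 2 for Col4a3 and 0.12 TPM in pool 1 and 0.11 TPM in pool 2 for Col4a4. The order of Col4a1, Col4a2, Col4a5, Col4a6 and then the pair of kidney chains was the same in both pools.

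The type IV genes stand in head-to-head pairs, each pair transcribed outwards from 1 start region. The GENCODE vM21 annotation of Col4a1 and Col4a2 overlaps by 22 bases at chr8:11312805-11312826 (GRCm38), so the first bases of Col4a2 on the plus strand are, read backwards on the minus strand, the first bases of Col4a1. They are shown because both genes begin in them, and the capitals mark the shared bases.
Col4a2 first bases: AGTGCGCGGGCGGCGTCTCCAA
Col4a1 first bases: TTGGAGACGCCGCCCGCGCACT
The gap between the annotated genes was 71 nt in the Col4a4 and Col4a3 pair and 1308 nt in the Col4a6 and Col4a5 pair. In both of the detected pairs the partners had unequal levels. The TPM of Col4a1 was 2.84 times that of Col4a2 in pool 1 and 2.29 times in pool 2, and that of Col4a5 was 7.69 times that of Col4a6 in pool 1 and 4.75 times in pool 2. No source used here states whether the counting used the strand, so reads in the 22 shared bases cannot be assigned to either gene from the tables alone.

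The multiplexins, collagens with an interrupted helix that carry glycosaminoglycan chains, complete the class. Col18a1, which encodes the heparan sulfate bearing collagen from which endostatin is cut, had 35.9 TPM in pool 1 and 27.5 TPM in pool 2 (31.7 ± 5.94, SD, n = 2). Its relative Col15a1, known from the outer face of basement membranes in muscle and vessels, had 3.45 TPM in pool 1 and 4.07 TPM in pool 2. Of the 88 collagen values in both pools, 10 lay below their own deposited interval, some by less than the rounding of TPM, and 1 lay above it.

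Col18a1 and Col9a1 each have an upstream and a downstream start that give chains of different length, and in both genes nearly all RNA was assigned to the short form. The short Col18a1 form, known from vascular and epithelial basement membranes, is transcribed from the upstream start, and the long forms from a start 52825 bases downstream. The short-form transcript Col18a1-202 had 35.9 TPM in pool 1 and 27.4 TPM in pool 2, while the long-form transcripts Col18a1-201 and Col18a1-203 were listed at 0 in both pools. In Col9a1, a type IX chain that decorates type II fibrils, the long form of cartilage starts upstream and the short form, known from the eye, 17593 bases downstream. The short-form transcript Col9a1-202 had 17.5 TPM in pool 1 and 18.3 TPM in pool 2, against 0.12 TPM in pool 1 and 0 in pool 2 for the long-form transcript Col9a1-201. The 250 bases before each of these starts are shown, from the RefSeq annotation of GRCm38.p6, because they are the start regions between which the RNA was so unevenly divided. They were read on the strand of the gene, at chr1:24194953-24195202 and chr1:24177360-24177609 (plus strand) for the short and the long form of Col9a1, and at chr10:77166531-77166780 and chr10:77113706-77113955 (minus strand) for the short and the long forms of Col18a1. Capitals mark matches on either strand to TATAAA (the TATA box), to CCAAT (the CCAAT box) or to GGGCGG (the GC box).
Col9a1 short-form start: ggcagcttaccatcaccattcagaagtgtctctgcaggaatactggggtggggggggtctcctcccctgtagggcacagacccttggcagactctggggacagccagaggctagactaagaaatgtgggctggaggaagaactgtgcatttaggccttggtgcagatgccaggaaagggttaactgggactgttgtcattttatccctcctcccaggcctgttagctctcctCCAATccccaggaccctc
Col9a1 long-form start: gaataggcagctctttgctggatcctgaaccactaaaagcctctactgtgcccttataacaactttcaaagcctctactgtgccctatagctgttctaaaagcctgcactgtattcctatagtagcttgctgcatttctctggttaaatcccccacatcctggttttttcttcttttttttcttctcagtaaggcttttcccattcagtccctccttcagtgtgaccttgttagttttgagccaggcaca
Col18a1 short-form start: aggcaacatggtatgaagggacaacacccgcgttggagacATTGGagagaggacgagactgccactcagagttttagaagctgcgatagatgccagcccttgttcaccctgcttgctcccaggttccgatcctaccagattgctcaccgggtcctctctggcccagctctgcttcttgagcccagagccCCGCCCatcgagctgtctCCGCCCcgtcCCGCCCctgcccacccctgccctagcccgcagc
Col18a1 long-form start: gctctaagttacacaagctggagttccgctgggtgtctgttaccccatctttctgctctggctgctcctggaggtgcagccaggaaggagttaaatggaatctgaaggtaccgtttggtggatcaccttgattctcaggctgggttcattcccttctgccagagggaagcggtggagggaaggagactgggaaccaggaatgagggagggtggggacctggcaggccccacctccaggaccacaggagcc
The short-form window of Col9a1 held 1 CCAAT match, and that of Col18a1 held 1 CCAAT and 3 GGGCGG matches. The long-form windows held none of the 3 motifs. No motif matches overlapped. Over 32851 RefSeq windows of the same length, 33.8% held CCAAT, 32.7% held GGGCGG and 12.4% held TATAAA on either strand. RefSeq gave such windows for 35 of the 44 collagen genes (38 windows).

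Among the other collagens, those that attach to fibrils (FACIT collagens) were the most numerous. Type IX collagen is assembled from the chains of Col9a1, Col9a2 and Col9a3. Col9a1 had 17.7 TPM in pool 1 and 18.5 TPM in pool 2, Col9a3 had 16.9 TPM in pool 1 and 16.4 TPM in pool 2, and Col9a2 had 3.83 TPM in pool 1 and 5.68 TPM in pool 2. Col9a1 and Col9a3 were thus near equal, and Col9a2 lay below both in each pool. Col12a1, on type I fibrils of tendon, fascia and periosteum, had 14.04 TPM in pool 1 and 21.8 TPM in pool 2, and the related Col14a1 had 2.54 TPM in pool 1 and 1.86 TPM in pool 2. Col16a1, found near fibrils and basement membranes, had 3.97 TPM in pool 1 and 6.79 TPM in pool 2. Col22a1, of muscle-tendon junctions, Col19a1, and Col20a1 were below a mean of 1 TPM. Of these Col22a1 was the highest, with 1.2 TPM in pool 1 and 0.56 TPM in pool 2, Col20a1 followed with 0.69 TPM in pool 1 and 0.51 TPM in pool 2, and Col19a1 was the lowest, with 0.17 TPM in pool 1 and 0.14 TPM in pool 2.

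Type VI collagen, which forms beaded filaments around cells, was read from 3 of its 6 genes. Col6a1 had 11.9 TPM in pool 1 and 11.5 TPM in pool 2, Col6a2 had 9.99 TPM in pool 1 and 8.64 TPM in pool 2, and Col6a3 had 9.40 TPM in pool 1 and 6.17 TPM in pool 2. The alternative chains Col6a4, Col6a5 and Col6a6, which lie in 1 cluster on chromosome 9, were at or near 0. Col6a5 was the lowest collagen gene, with 0 expected counts in pool 1 and 1 in pool 2, where a count of 0 allows up to 3 by counting error alone.

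The short-chain networks were represented by Col8a2, a chain of the network known from the cornea and vessels, with 11.8 TPM in pool 1 and 12.0 TPM in pool 2. Its partner Col8a1 had 1.62 TPM in pool 1 and 1.70 TPM in pool 2. Col10a1, a marker of hypertrophic cartilage, had 9 expected counts in each pool. Its gene lies within Nt5dc1, which is transcribed on the opposite strand and had 4.56 TPM in pool 1 and 4.02 TPM in pool 2, so even these few reads may not be separable.

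Of the transmembrane collagens, Col23a1 was the most abundant, with 6.78 TPM in pool 1 and 6.71 TPM in pool 2. Col25a1, which neurons make and which is required for motor axons to innervate muscle in mice, had 3.37 TPM in pool 1 and 3.45 TPM in pool 2. Col13a1, a collagen of the neuromuscular junction, had 1.39 TPM in pool 1 and 1.04 TPM in pool 2 from 78 expected counts in pool 1 and 62 in pool 2. Col17a1, of epidermal hemidesmosomes, had 0.28 TPM in pool 1 and 0.24 TPM in pool 2. The skin anchoring fibril gene Col7a1 had 0.32 TPM in pool 1 and 0.62 TPM in pool 2. Of 10 markers of surface and otic epithelium 9 reached 1 TPM in both pools. The simple-epithelium keratin Krt8 had 18.3 TPM in pool 1 and 20.9 TPM in pool 2, and the basal keratin Krt5 had 1.40 TPM in pool 1 and 1.25 TPM in pool 2. Krt14, Krt15 and Trp63 of the same list were higher in pool 2, unlike Krt5. Krt14 had 1.82 TPM in pool 1 and 2.70 TPM in pool 2, and Krt15 had 1.00 TPM in pool 1 and 1.68 TPM in pool 2. Trp63 had 2.34 TPM in pool 1 and 3.62 TPM in pool 2. Epcam and Esrp1 were higher in pool 1.

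A collagen without a settled class, Col26a1, was by gene TPM the most abundant member of the other collagens and ranked 7 of all 44. It had 23.1 TPM in pool 1 and 24.1 TPM in pool 2 (23.6 ± 0.700, SD, n = 2). The gene encodes a secreted protein with short collagen stretches. Transcripts that do not code for protein held 14.8% of its TPM in pool 1 and 28.1% in pool 2. In pool 2 its coding transcripts Col26a1-202 and Col26a1-201 had 12.9 and 4.36 TPM, against 18.3 TPM for Col9a1-202. On coding transcripts its first place among the other collagens was thus not kept in pool 2. Col28a1, known from peripheral nerve, was near 0 with 2 expected counts in pool 1 and 5 in pool 2.

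Chains that assemble into 1 protein were compared by their TPM ratio wherever both had a mean of at least 1 TPM, which left 9 of 11 pairs. The pairs of Col4a3 with Col4a4 and of Col11a1 with Col11a2 were left out because a chain was below that level. In type I collagen, whose usual trimer holds more Col1a1 than Col1a2 chains, the ratio of Col1a1 to Col1a2 was 0.810 in pool 1 and 0.946 in pool 2. In type V collagen the ratio of Col5a1 to Col5a2 was 1.03 in pool 1 and 1.33 in pool 2. The ratio of Col6a1 to Col6a2 was 1.19 in pool 1 and 1.33 in pool 2. These chains were near even, and in type I collagen the Col1a1 RNA was not in excess in either pool. The type IX and type VIII genes were less even: the ratio to Col9a2 was 4.63 in pool 1 and 3.25 in pool 2 for Col9a1 and 4.42 in pool 1 and 2.89 in pool 2 for Col9a3, and Col8a1 had 0.138 times the TPM of Col8a2 in pool 1 and 0.142 times in pool 2. Of the 9 ratios, 6 were above 1 in both pools.

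**Figure D2:**
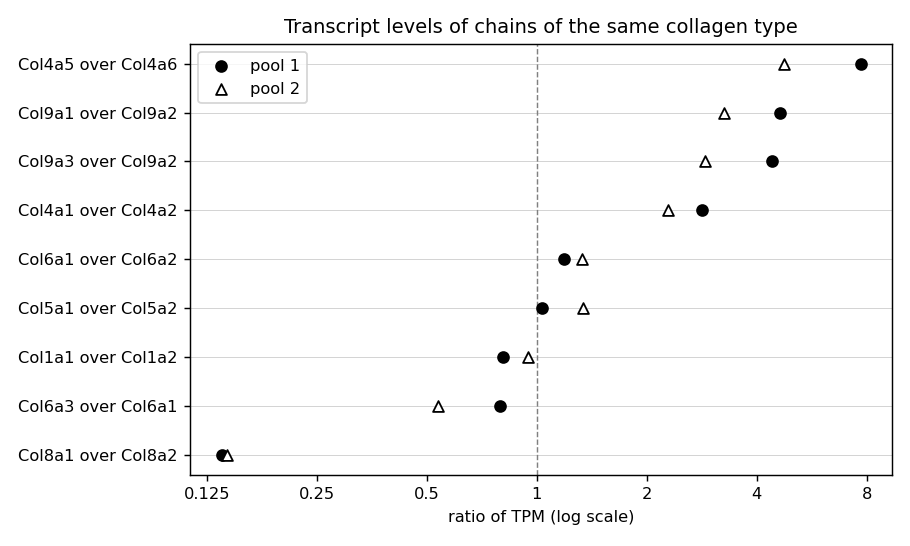
TPM ratio of the first to the second chain for 9 pairs of collagen genes whose products assemble together, on a log axis with a line at 1 and 1 point for each pool. Col1a1 to Col1a2 lies just below the line, Col4a5 to Col4a6 is the highest at 7.69 in pool 1 and 4.75 in pool 2, and Col8a1 to Col8a2 the lowest at 0.138 in pool 1 and 0.142 in pool 2.

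The ratio of Col6a3 to Col6a1 depended on which transcripts were counted. It was 0.793 in pool 1 and 0.537 in pool 2 from gene TPM. Much of the Col6a3 TPM was assigned to a short transcript that does not code for protein, Col6a3-206, with 5.46 TPM in pool 1 and 3.53 TPM in pool 2, and short transcripts weigh heavily in TPM. Counts divided by the length of the longest coding transcript gave 0.256 in pool 1 and 0.198 in pool 2, a mean of 0.227, and transcripts of at least 2000 nt gave 0.270 in pool 1 and 0.221 in pool 2, a mean of 0.246. Under each way of counting Col6a3 was below Col6a1 in both pools.

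Transcript tables showed how evenly the other collagens were read. Of the 29 genes with a mean of at least 1 TPM, 26 had more than 1 transcript above 0. In 11 of the 26 the most abundant transcript held more than 90% of the TPM in both pools, and in 11 it held less than 70% in both. Col1a1-201, the full-length transcript, held 99.8% of Col1a1 in pool 1 and 98.8% in pool 2, and Col4a1-201 held 99.7% of Col4a1 in pool 1 and 100% in pool 2. Col3a1 was divided between its full-length transcript Col3a1-201, with 146 TPM in pool 1 and 115 TPM in pool 2, and the 737-nt protein-coding fragment Col3a1-205, with 95.9 TPM in pool 1 and 104 TPM in pool 2. The Col3a1 level at the head of the order thus includes a short annotated fragment, and its full-length transcript alone was still above Col1a2-201, which had 110 TPM in pool 1 and 91.8 TPM in pool 2. The most abundant transcript was not protein-coding in 3 genes, with Col16a1-207, Col27a1-205 and Col6a3-206. Transcripts under 2000 nt held 16.0% of collagen TPM in pool 1 and 19.1% in pool 2.

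**Figure D3:**
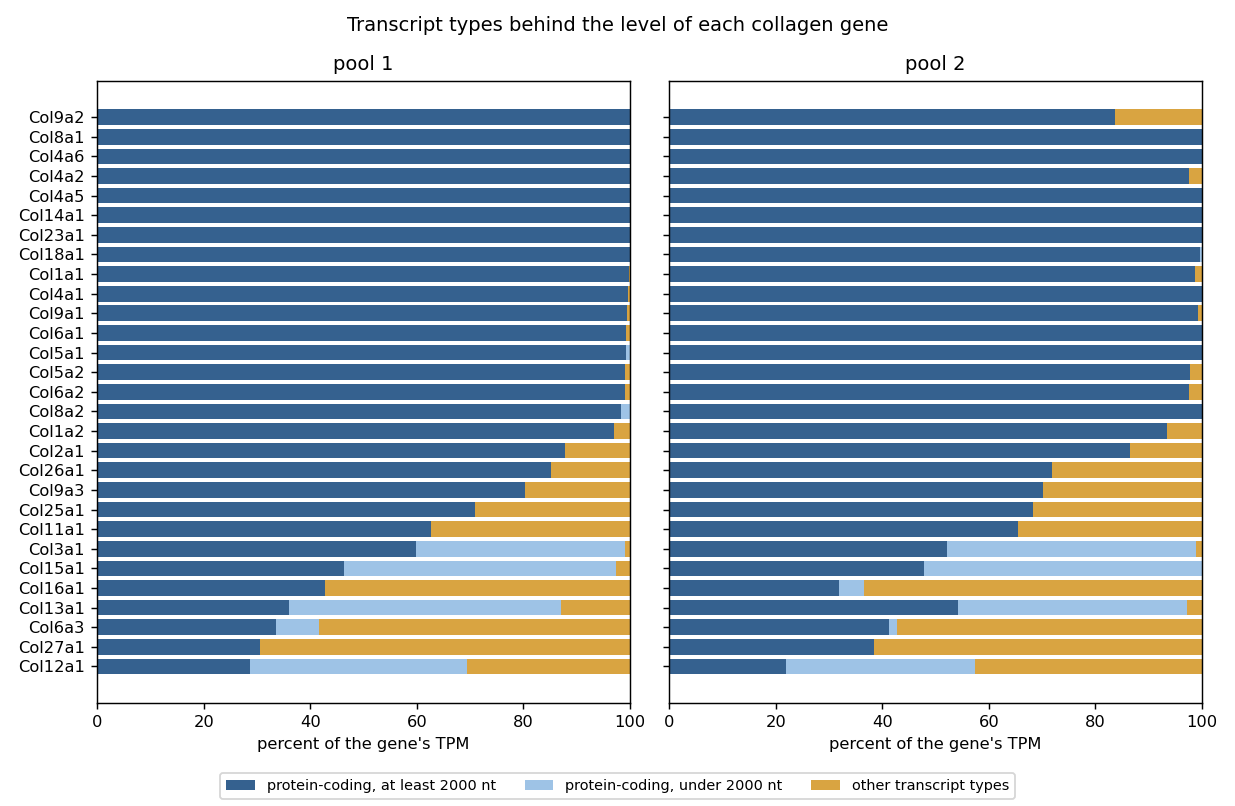
Percent of each collagen gene's TPM by transcript type for genes with a mean of at least 1 TPM, with pool 1 in the left panel and pool 2 in the right, and bars stacked from protein-coding transcripts of at least 2000 nt, shorter protein-coding transcripts and other transcript types. The bars of Col1a1 and Col4a1 are almost wholly long protein-coding transcripts, while more than 50% of those of Col12a1, Col27a1, Col6a3, Col16a1 and Col15a1 comes from shorter or other transcripts in both pools.

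The pools were close for most collagens. Of the 29 genes with a mean of at least 1 TPM, 0 were over 1.5-fold higher in pool 1 relative to the median gene, against 1.63% of the 14942 Ensembl genes at that level. Lower in pool 1 by over 1.5-fold were 2 collagens (6.90%), Col12a1 and Col16a1, against 4.35% of those genes and 2.07% of the 13020 protein-coding genes among them. The median collagen ratio was -0.12, with 10 genes above 0 and 19 below (14 above and 15 below without centring on the median gene), and the ratios ran from -0.76 for Col16a1 to 0.43 for Col6a3. The size of the ratio, without its sign, had a median of 0.15 for the collagens and 0.15 for all genes tested. By class, the median ratio was -0.08 for 8 fibrillar genes, -0.05 for 6 basement membrane genes and -0.13 for 15 other genes.

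Col12a1 had a ratio of -0.71, and its deposited intervals of 13 to 14.98 TPM in pool 1 and 20.3 to 22.8 TPM in pool 2 did not overlap. The retained-intron transcript Col12a1-206 had 3.81 TPM in pool 1 and 8.40 TPM in pool 2, and the full-length transcript Col12a1-201 had 4.02 TPM in pool 1 and 4.79 TPM in pool 2. The larger share of the difference thus lay in the retained-intron transcript. Col16a1 had a ratio of -0.76, with 310 expected counts in pool 1 and 469 in pool 2, and its TPM lay below its own deposited interval in both pools. In TPM, most of this difference lay in a short transcript that does not code for protein, Col16a1-207 (833 nt). It had 1.70 TPM in pool 1 and 3.38 TPM in pool 2, while the full-length Col16a1-201 had 0.82 TPM in pool 1 and 0.87 TPM in pool 2. In expected counts, Col16a1-209 and the protein-coding Col16a1-210 each differed by more than Col16a1-207. Col16a1-209 had 45.7 expected counts in pool 1 and 108 in pool 2, and Col16a1-210 had 102 in pool 1 and 144 in pool 2. Just short of the 1.5-fold limit was Col9a2, with a ratio of -0.58. With DESeq2 size factors in place of the median gene the Col12a1 ratio was -0.58, and with transcripts of at least 2000 nt the Col16a1 ratio was -0.58, each then just within the limit.

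**Figure D4:**
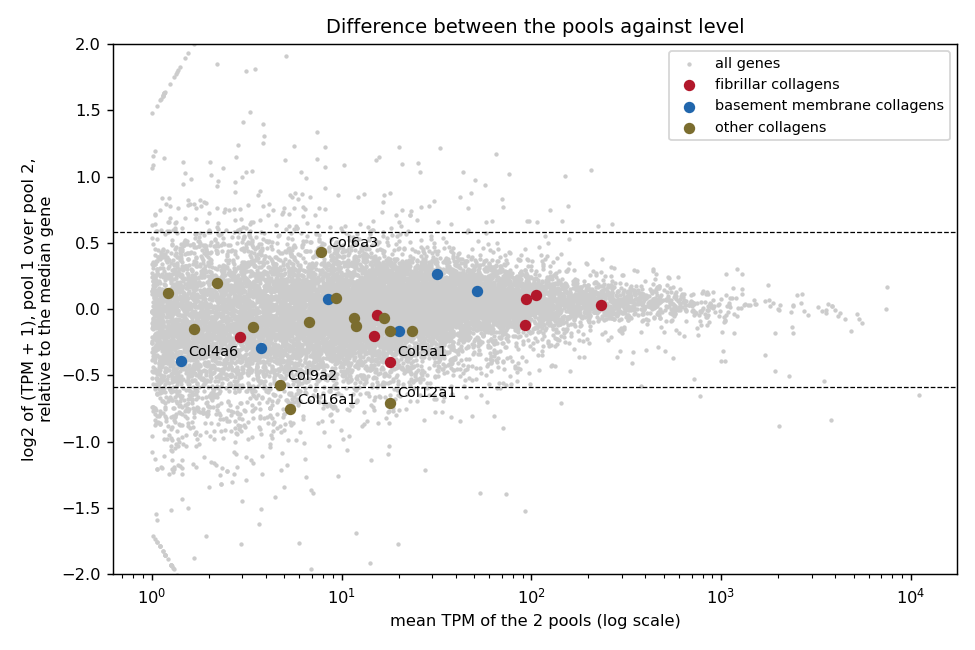
Log2 ratio of TPM + 1 in pool 1 over pool 2, relative to the median gene, against mean TPM on a log axis, with collagens coloured by class over all Ensembl genes in grey; values beyond the axis limits are not drawn. Most collagens lie near 0 within the cloud of all genes, and Col12a1 at -0.71 and Col16a1 at -0.76 lie below the dashed 1.5-fold line.

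Genes for the proteins that make, trim, bind and remove collagen were read from the same libraries. The counts of detected genes in this and the following lists stand against 59.4% of all protein-coding nuclear genes. All 20 genes for folding and modifying collagen in the cell reached 1 TPM in both pools, and 0 were over 1.5-fold apart. P4hb, a subunit of prolyl 4-hydroxylase, had 408 TPM in pool 1 and 364 TPM in pool 2, the prolyl isomerase gene Ppib had 359 TPM in pool 1 and 329 TPM in pool 2, and the collagen chaperone gene Serpinh1 had 189 TPM in pool 1 and 156 TPM in pool 2. Of 13 genes for procollagen processing and cross-linking, 9 were detected, led by Pcolce, the enhancer of C-propeptide removal, with 49.3 TPM in pool 1 and 56.8 TPM in pool 2. The C-proteinase gene Bmp1 had 20.3 TPM in pool 1 and 20.1 TPM in pool 2, and the lysyl oxidase gene Loxl2 had 8.88 TPM in pool 1 and 11.7 TPM in pool 2. None of the 9 was over 1.5-fold apart.

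Receptors and partners were present as well. Of 10 collagen receptor genes 7 were detected and 0 were over 1.5-fold apart. The integrin gene Itgb1 had 145 TPM in pool 1 and 113 TPM in pool 2, and the receptor tyrosine kinases Ddr1 and Ddr2 differed in level: Ddr1 had 58.4 TPM in pool 1 and 45.0 TPM in pool 2, and Ddr2 had 22.95 TPM in pool 1 and 21.03 TPM in pool 2. Of 16 basement membrane partners 13 were detected, again with 0 over 1.5-fold apart. Agrn, which encodes agrin, had 60.6 TPM in pool 1 and 54.8 TPM in pool 2, Pxdn, the peroxidase that cross-links type IV collagen, had 40.9 TPM in pool 1 and 30.7 TPM in pool 2, and Nid1, which links laminin to type IV collagen, had 30.3 TPM in pool 1 and 26.8 TPM in pool 2.

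Of 12 fibril-binding genes 8 were detected. Sparc, a collagen-binding glycoprotein, had 388 TPM in pool 1 and 382 TPM in pool 2, Lum, a proteoglycan on fibrils, had 74.9 TPM in pool 1 and 69.4 TPM in pool 2, and Fn1, fibronectin, had 58.9 TPM in pool 1 and 56.9 TPM in pool 2. Dcn, the proteoglycan decorin of type I fibrils, was the 1 gene of this list over 1.5-fold apart, with 12.0 TPM in pool 1 and 23.7 TPM in pool 2 (ratio -1.03). Of 11 matched genes for collagen breakdown 8 were detected. Mmp14 had 51.8 TPM in pool 1 and 47.5 TPM in pool 2, and the gelatinase gene Mmp2 had 45.3 TPM in both pools. Timp2 had 30.9 TPM in pool 1 and 27.2 TPM in pool 2. The membrane protease gene Mmp16 was the 1 over 1.5-fold apart, with 13.6 TPM in pool 1 and 22.1 TPM in pool 2 (ratio -0.77). These lists thus each held 1 gene over 1.5-fold lower in pool 1 among 8 with a mean of at least 1 TPM. The other collagen-related lists held 0, against 4.35% of all Ensembl genes at that level.

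Markers of several cell types that could supply collagen were all detected, while the cartilage and the notochord and floor plate lists were divided, as given above. All 14 mesenchyme and meninges markers reached 1 TPM in both pools, with a summed level of 265 TPM in pool 1 and 275 TPM in pool 2. All 11 endothelial markers did, with 182 TPM in pool 1 and 163 TPM in pool 2, as did all 8 mural cell markers, with 73.2 TPM in pool 1 and 65.9 TPM in pool 2. Of the mesenchyme markers only Dcn was over 1.5-fold apart, with 12.0 TPM in pool 1 and 23.7 TPM in pool 2 (ratio -1.03). Of the endothelial and mural cell markers 0 were. Dcn and Lum are also on the fibril-binding list, and Pdgfrb is on both the mesenchyme and the mural cell list. These lists are therefore not independent. The 9 neural progenitor and 8 neuron markers that define the labelled tissue were all detected. Of these only Hes5 was over 1.5-fold apart, with 202 TPM in pool 1 and 109 TPM in pool 2 (ratio 0.78). Skeletal muscle markers, of which 4 of 7 were detected, summed to 60.3 TPM in pool 1 and 26.3 TPM in pool 2, and Actc1, Myog, Acta1 and Myod1, 4 of the 5 markers with a mean of at least 1 TPM, were over 1.5-fold higher in pool 1, against 1.63% of all genes at that level. Surface and otic epithelium markers summed to 166 TPM in pool 1 and 109 TPM in pool 2, led by the otic gene Oc90, with 105 TPM in pool 1 and 47.6 TPM in pool 2. Among the 9 of these markers with a mean of at least 1 TPM, only Oc90 was over 1.5-fold apart, and their median ratio was -0.13. Of 7 neural crest and Schwann precursor markers 5 were detected. Among the 6 with a mean of at least 1 TPM, only Sox10 was over 1.5-fold apart, with 12.7 TPM in pool 1 and 7.31 TPM in pool 2. All 7 macrophage and microglia markers were detected, and only Cx3cr1 was over 1.5-fold apart, with 3.20 TPM in pool 1 and 4.96 TPM in pool 2. The markers named here were picked after their values were seen. The part of these cells in the collagen levels and in the ratios between the pools was not tested.

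The classes also differed in a gene feature that the sorting did not use. Fibrillar collagen genes are known for exons of 54 nt, each coding for 6 repeats of glycine and 2 further residues. Of 627 internal coding exons in the fibrillar genes 48.6% were 54 nt long, against 4.43% of 361 in the basement membrane genes, 15.9% of 932 in the other collagens and 0.733% of 159103 in all protein-coding genes. Lengths that are a multiple of 9 nt, the span of 1 repeat, made up 83.9% of internal coding exons in the fibrillar genes, 45.2% in the basement membrane genes and 57.4% in the other collagens, against 14.3% in all protein-coding genes. By class, exons of 54 nt were thus most common in the fibrillar genes and least common, among the collagens, in the basement membrane genes. The other collagens were mixed. Their share was 26.3% in the 9 FACIT genes, 5.17% in Col7a1 and 4.65% in the unclassed Col26a1 and Col28a1. Col9a2 and Col9a3 each had 14 of 30 exons of this length and Col22a1 28 of 61, against 21 of 49 in Col1a1. Col12a1, also a FACIT gene, had 4 of 63. Exons of 1 gene share a history and are not replicates, so these shares are given without a test.

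**Figure D5:**
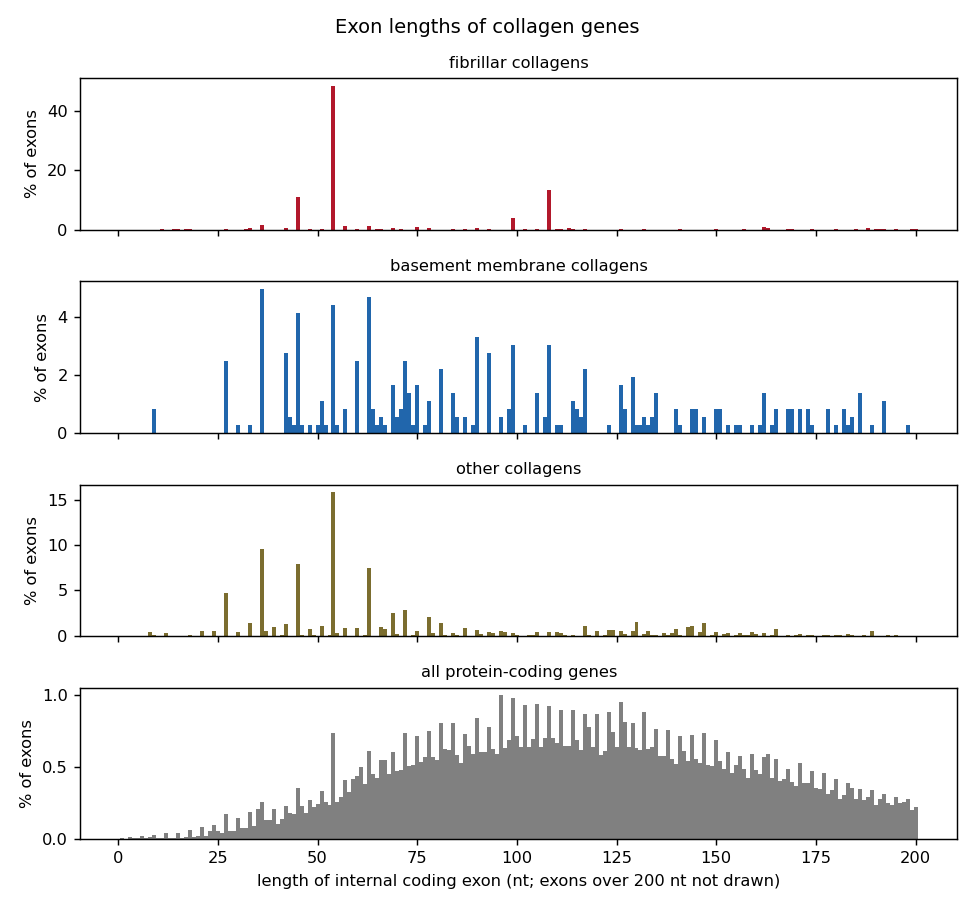
Percent of internal coding exons by length in nt for the fibrillar, basement membrane and other collagen genes and for all protein-coding genes, with lengths beyond the axis limit not drawn. The peak at 54 nt reaches 48.6% in the fibrillar genes, against 15.9% in the other collagens, 4.43% in the basement membrane genes and 0.733% in all protein-coding genes.

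Several collagen genes are neighbours within 50000 nt, and the neighbours Col3a1 and Col5a2, like Col9a1 and Col19a1, had unequal levels. Col3a1 and Col5a2, both fibrillar, lie tail to tail on chromosome 1 with a gap of 24614 nt, at 232 ± 15.8 and 15.3 ± 0.516 TPM (SD, n = 2). Col9a1 and Col19a1 lie tail to tail with a gap of 9205 nt, at 18.1 ± 0.523 and 0.155 ± 0.0212 TPM. The cluster of Col6a6, Col6a5 and Col6a4, on 1 strand with gaps of 27917 and 28810 nt, was at or near 0 throughout, with means of 0.055, 0 and 0.10 TPM. In all, 24 collagen genes overlapped 32 other annotated genes in GENCODE vM21, 5 of these at 1 TPM or more in both pools and all 5 on the opposite strand. Besides the type IV pair and Nt5dc1, these were Slc19a1, in Col18a1, with 17.4 TPM in pool 1 and 16.7 TPM in pool 2, and the pseudogene Gm15079, in Col4a6, with 1.52 TPM in pool 1 and 3.06 TPM in pool 2. How much of the Col18a1 and Col4a6 levels such reads could make up cannot be told from the tables.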

How the data were processed

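Per the file headers, the authors deposited a gene and a transcript table for each library, with an expected count, TPM and FPKM. The deposited bounds of an interval around each TPM were kept as a score, since no source used here states their level. The transcript table also holds the authors' deposited isoform percent, used for 1 alternative. Genes were annotated with GENCODE M4, per the deposited readme. The aligner, quantification tool and strand setting were not stated in any source used here.

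Symbols and GRCm38 coordinates were taken from GENCODE vM21, where 42462 of 43346 Ensembl identifiers matched. The pool ratio was the log2 of TPM + 1 in pool 1 less that in pool 2, minus its median over Ensembl genes averaging at least 1 TPM. Alternatives used FPKM, or expected counts, rounded for TMM scaling (edgeR 4.0.16) and for size factors (DESeq2 1.42.0), run under R 4.3.3. The remaining steps ran under Python 3.11.15 with SciPy 1.17.1, pandas 2.3.3, NumPy 2.4.6 and Matplotlib 3.10.9. The ratio step was tested on simulated data. With 1 group of 2 pools no test between groups was possible.

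All collagen genes were named. Of each list of collagen-related genes, but not of the marker lists, the 3 most abundant genes and those over 1.5-fold apart that averaged at least 5 TPM were named. Transcripts, neighbours and markers were picked for naming with their values known. The collagen genes and all lists were chosen with earlier results of these data known.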

Additional observations from a re-analysis of the deposited data

How the results depend on the processing

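Calls and directions were recomputed under each alternative. From expected counts in place of TPM, basement membrane collagens held 17.9% and other collagens 13.3% of the collagen sum, and collagens 0.296% of protein-coding expression. With protein-coding transcripts only, the shares were 69.96% fibrillar, 14.9% basement membrane and 15.2% other, collagens made up 0.127% of protein-coding expression, and the most abundant transcript held 99.2% of a gene's TPM in the median, against 72.1% over all transcripts. With transcripts of at least 2000 nt only, a setting chosen after seeing the data, the shares were 66.2% fibrillar and 16.6% basement membrane, and 1 collagen was over 1.5-fold apart. At a fold limit of 2 there were 0. No filter on level put the median collagen ratio at 0.02. Between 20 and 32 collagens were detected under other limits, and 27 with FPKM. Col12a1 and Col16a1 each kept the call in 8 of 9 alternatives. Col9a2 passed the limit with a pseudocount of 0.1 (-0.67) and with centring on protein-coding genes, also chosen after seeing the data (-0.59), and Col4a6 with TMM (-0.62) and DESeq2 scaling (-0.59). Neither Col12a1 nor Col16a1 changed sign, while 5 of the 27 collagens within the limit did so in 1 or more alternatives: Col26a1, Col9a3, Col5a2, Col6a1 and Col23a1. Leaving out a pool gives the value of the other and is no check of stability. No paired analysis was possible because the design has 1 group. Depth limits the 13 genes with fewer than 100 expected counts in both pools.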
